A study of Mus musculus with 10 samples.

Results

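The odorant receptors described here are the genes numbered Olfr311 to Olfr332, Olfr376 to Olfr411 and Olfr1372 to Olfr1396, without those whose suffix marks a pseudogene. The rule takes receptor numbers only and uses no measured value, but the members were chosen with earlier results of these data known. It gave 61 of the 24421 genes measured, and 61 of 1107 odorant receptors. All 61 lie on chromosome 11 and are annotated as protein coding. In order along the chromosome they form 3 groups: 21 members from Olfr1372 to Olfr1396, 18 from Olfr311 to Olfr332 and 22 from Olfr376 to Olfr411.

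Odorant receptors are G protein-coupled receptors on the cilia of olfactory sensory neurons, where they bind odorants and start a cyclic AMP cascade. Each mature neuron expresses a single receptor gene from a single allele. Receptor genes sit in clusters, and their choice involves the homeodomain factor Lhx2, its partner Ldb1 and the Ebf factors, which bind enhancers near the clusters. In RNA of the whole tissue, the level of a receptor depends both on how many neurons express it and on how much of its RNA each neuron holds. In such bulk samples fewer cells of a type and less RNA per cell cannot be told apart.

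RNA of olfactory epithelium, the sensory tissue of the nose, was sequenced from mice of the C57BL/6 background that were 6 months old and untreated. The samples were 4 biological replicates with the Apoe3 genotype and 6 with the Apoe4 genotype. Both are human alleles of the apolipoprotein E gene, whose product carries lipids between cells, and the comparison asks how their effects on this tissue differ. The labels do not say how the human alleles were introduced, what drives their expression or which sex the mice were.

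The values come from 1 table of results per gene over all 10 libraries, so that a mean, a fold change and a standard error are at hand for each receptor, but no value per library. Approximate assigned reads ran from 14900000 to 20100000 per library. The tissue's defining neuronal marker was abundant: Omp, which marks mature olfactory sensory neurons, had a mean of 113676 normalized counts. All odorant receptors together took 0.296% of the summed mean of all genes. Apoe, the mouse gene, had a mean of 249 normalized counts and a log2 fold change of -0.16 ± 0.0960 (SE; adjusted p = 0.579 in the authors' deposited table). It does not check the labels, since transcripts of the human alleles may align to it only in part. The 4 Y-linked genes tested were all lower in Apoe4, by log2 fold changes of -2.80 to -3.72, so that sex and genotype cannot be told apart in any result below.

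Of the 61 receptors, 42 had a mean above the limit of about 10 normalized counts that the authors used for testing. The other 19 were not tested, and 2 of these, Olfr331 and Olfr1373, were listed at 0. The member just inside the limit was Olfr397 with a mean of 10.1, and the member just outside it was Olfr378 with 8.08. Olfr1372 to Olfr1396 had 16 tested members, Olfr311 to Olfr332 had 12, and Olfr376 to Olfr411 had 14.

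Levels between receptors were compared as the mean normalized count per kilobase of the longest annotated transcript. The highest were Olfr325 at 65.4 per kb, Olfr330 at 63.3 per kb and Olfr328 at 60.1 per kb, neighbours in the Olfr311 to Olfr332 group. The place of Olfr325 depends on its short longest transcript of 1649 bases. By mean alone it ranked 9, at 108 normalized counts. Per kilobase of coding sequence it had 110, against 190 for Olfr330 and 188 for Olfr328. Olfr314, at the other end of that group, followed at 41.6 per kb. The highest of the Olfr1372 to Olfr1396 group were Olfr1395 at 39.3 per kb, Olfr1384 at 38.9 per kb, Olfr1386 at 31.7 per kb and Olfr1389 at 31.2 per kb. Those of the Olfr376 to Olfr411 group were Olfr390 at 29.5 per kb, Olfr411 at 24.6 per kb, Olfr380 at 24.1 per kb and Olfr389 at 20.5 per kb. The spread of these levels over libraries is not known, so that neighbours in this order are not shown to differ.

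Levels were uneven within each group. Among the tested members the highest level per kb of transcript, that of Olfr325, was 27.0 times the lowest. The 10 highest of the 61 members held 52.0% of their summed level per kb. Olfr311 to Olfr332 held 41.9% of it, Olfr1372 to Olfr1396 held 34.1% and Olfr376 to Olfr411 held 24.0%. The order of the first 2 groups depends on the division by transcript length. By summed mean Olfr1372 to Olfr1396 came first at 1022 normalized counts, Olfr311 to Olfr332 had 968 and Olfr376 to Olfr411 had 650. The members made up 5.51% of receptor genes and 5.12% of the summed receptor mean. Their median mean was 21.3 normalized counts, against 26.1 over all receptors.

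**Figure D1:**
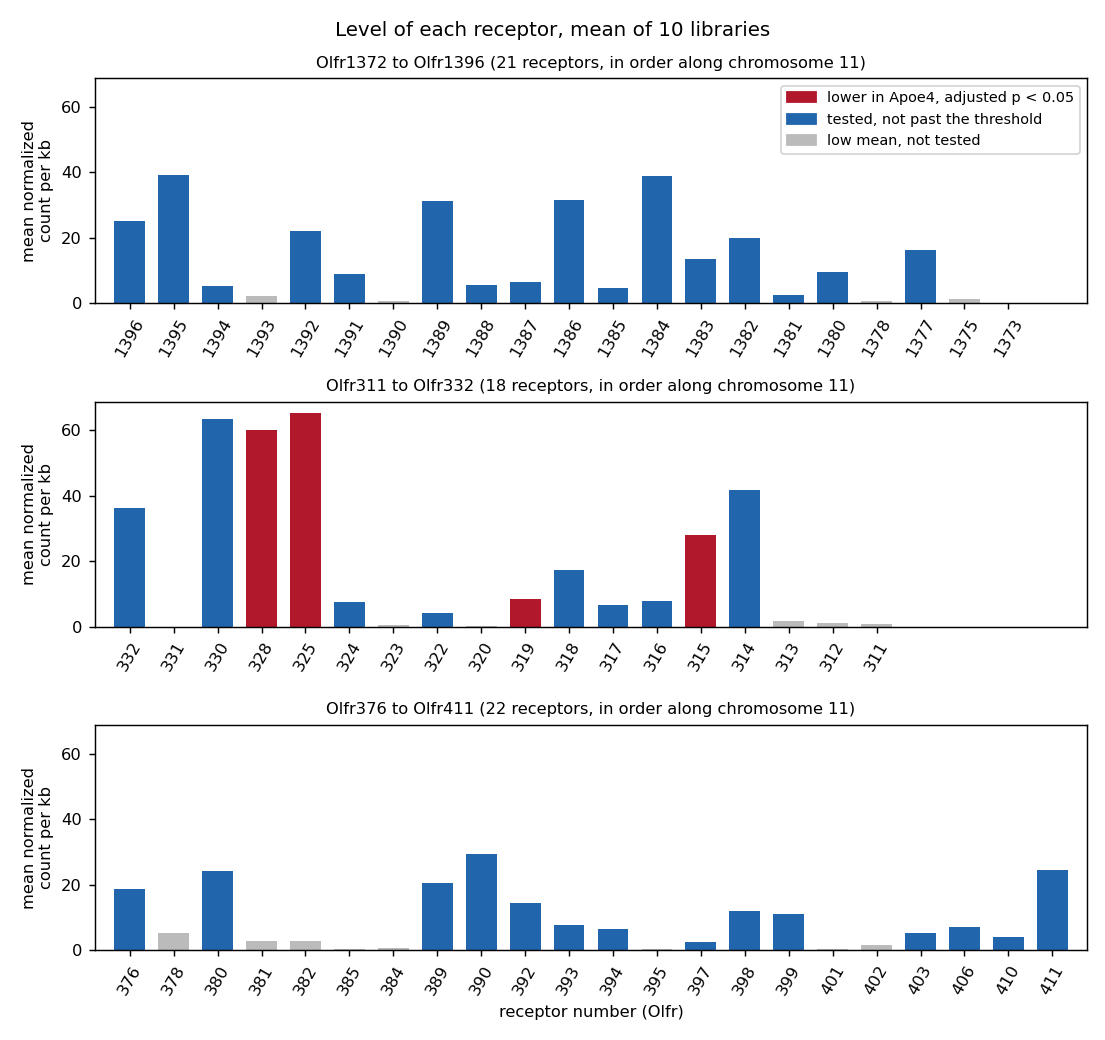
Mean normalized count per kilobase of transcript (vertical axis) of each of the 61 receptors, in 3 panels by group and in order along chromosome 11. Each bar is the mean over 10 libraries, red bars are the receptors lower in Apoe4 at an adjusted p under 0.05, and grey bars are receptors that were not tested. Olfr330, Olfr328 and Olfr325 stand side by side at 60.1 to 65.4 per kb, while several of their neighbours are near 0.

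The receptors that differed between the genotypes all came from the Olfr311 to Olfr332 group. By the authors' deposited table, 4 of the 42 tested members passed an adjusted p of 0.05, all lower in Apoe4: Olfr315, Olfr328, Olfr319 and Olfr325. No member passed in the other direction. The background was 0.455% of all tested genes called lower (0.779% in either direction), and 1.04% of the 770 other odorant receptors tested called lower (1.69% in either direction). All 4 calls held with no filter on the mean, and none held in a test of the shrunken folds against a 1.2-fold change in place of no change.

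The called receptors are not all close relatives of each other. Coding identity was taken from the edit distance over the longer of 2 coding sequences, so that a difference in length lowers it. Olfr328 and Olfr325, of 930 and 978 coding bases, had an identity of 90.1%. The other 5 pairs among the 4 had 59.3% to 63.9%. A stretch of 75 coding bases is printed for each, beside the tested member closest to it by this identity. Olfr328, Olfr325 and Olfr319 each have a relative of 92.5% to 93.0% identity in the same group that did not pass the test. Olfr315 has no such relative, and its closest, Olfr314, is shown beside it. The stretch surrounds the codons for the Asp-Arg-Tyr motif that follows the third transmembrane segment of these receptors, and the capitals mark those codons. Coordinates are GRCm38, the strand is that of the gene, and the sequences are from GENCODE vM21 transcripts.
Olfr330, chr11:58529568-58529642, minus strand: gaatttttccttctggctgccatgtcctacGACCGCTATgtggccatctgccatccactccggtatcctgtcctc
Olfr328, chr11:58551836-58551910, minus strand: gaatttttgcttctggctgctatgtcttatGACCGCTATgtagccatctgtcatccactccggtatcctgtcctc
Olfr325, chr11:58581188-58581262, plus strand: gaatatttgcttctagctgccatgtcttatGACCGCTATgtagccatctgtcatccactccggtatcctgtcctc
Olfr319, chr11:58702033-58702107, plus strand: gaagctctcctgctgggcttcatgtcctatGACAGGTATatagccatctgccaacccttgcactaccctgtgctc
Olfr316, chr11:58757997-58758071, plus strand: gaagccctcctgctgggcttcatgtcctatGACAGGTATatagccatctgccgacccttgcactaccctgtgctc
Olfr315, chr11:58778459-58778533, plus strand: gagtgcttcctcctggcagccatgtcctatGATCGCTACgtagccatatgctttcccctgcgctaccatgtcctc
Olfr314, chr11:58786560-58786634, plus strand: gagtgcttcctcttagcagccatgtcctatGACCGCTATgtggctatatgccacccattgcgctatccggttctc

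Within this stretch Olfr328 differed from Olfr330 at 6 of 75 bases, Olfr325 from Olfr330 at 7, Olfr319 from Olfr316 at 2 and Olfr315 from Olfr314 at 15. Over the whole coding sequence the identities of these pairs were 92.8%, 93.0%, 92.5% and 68.7%. The called Olfr328 and Olfr325 differed from each other at fewer bases of the stretch than either did from Olfr330. Which tested receptor is closest to Olfr328 may therefore depend on how a difference in length is counted.

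A shrunken and an unshrunken scale are used for the size of a change. The authors' log2 fold changes were shrunk towards 0 by their model, most strongly for receptors with few reads. Approximate unshrunken folds were derived from the deposited folds and standard errors, which often allow 2 solutions, and with the mean they give an approximate level per genotype. These levels carry no spread over libraries, so that an overlap of single libraries between the genotypes could not be examined.

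Olfr315 (chr11:58778089-58779086, plus strand) changed the most of the 4 on the shrunken scale. Its approximate level was 97.0 to 98.3 normalized counts in Apoe3 and 49.2 to 49.99 in Apoe4. The authors' deposited table gave a shrunken log2 fold change of -0.49 ± 0.105 (SE), with an adjusted p of 0.00107, and the unshrunken log2 fold was -0.96 to -0.999. Its closest tested relative, Olfr314, is also its next neighbour on the chromosome, with a shrunken log2 fold change of -0.24 ± 0.105 (SE; p = 0.0247, adjusted p = 0.409 in the authors' deposited table).

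Olfr328 (chr11:58551305-58552237, minus strand) was the most abundant of the 4 by mean, at 175 normalized counts. Its approximate level was 235 to 242 normalized counts in Apoe3 and 130 to 134 in Apoe4. The shrunken log2 fold change was -0.43 ± 0.105 (SE; adjusted p = 0.0106 in the authors' deposited table), while the unshrunken one was -0.81 to -0.90. Olfr330, with a coding identity of 92.8% to it, had a mean of 180 normalized counts and a shrunken log2 fold change of -0.11 ± 0.105 (SE; adjusted p = 0.766 in the authors' deposited table). The difference between these 2 folds was not tested.

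Olfr325 (chr11:58580837-58581877, plus strand) had approximate levels of 139 to 150 normalized counts in Apoe3 and 79.5 to 87.3 in Apoe4. The authors' deposited table gave a shrunken log2 fold change of -0.39 ± 0.104 (SE), with an adjusted p of 0.0292, and the unshrunken log2 fold was -0.67 to -0.92. This call was lost when a trend of the test statistic with transcript length was subtracted (adjusted p = 0.175). Of its 150-base coding windows, 16.04% also occur in another receptor, and its closest member is Olfr331 at 94.1% identity, which was listed at 0. The other 3 called receptors share no such coding window with another receptor, while untranslated sequence was not compared. Of the uncalled relatives printed above, Olfr330 shares 14.32% of its windows with another receptor, Olfr316 shares 16.38% and Olfr314 none. Reads of Olfr330 and Olfr316 may therefore also fit another receptor.

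Olfr319 (chr11:58701703-58702623, plus strand) was the lowest of the 4 in level, with a mean of 21.5 normalized counts and 8.61 per kb. Its approximate level was 34.7 normalized counts in Apoe3 and 12.8 in Apoe4. The shrunken log2 fold change was -0.36 ± 0.0914 (SE; adjusted p = 0.0136 in the authors' deposited table), while the unshrunken one, -1.44, was the furthest from 0 of the 4. Olfr316, which shares 92.5% of its coding bases and had about the same mean at 21.3 normalized counts, had a shrunken log2 fold change of -0.00 ± 0.0880 (SE; adjusted p = 0.998 in the authors' deposited table).

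**Figure D2:**
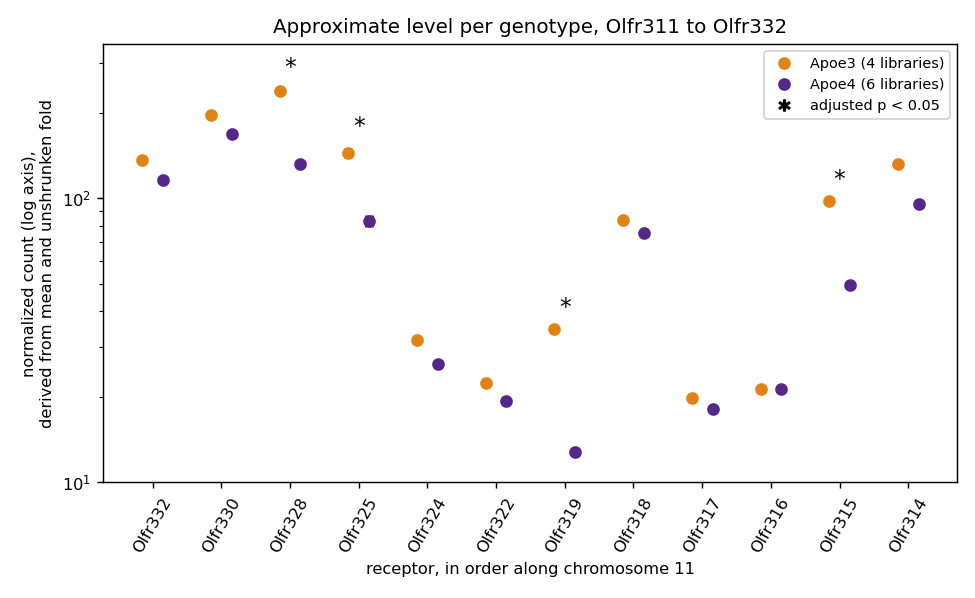
Approximate level in normalized counts (vertical log axis) of the 12 tested receptors from Olfr311 to Olfr332, in order along chromosome 11, in Apoe3 (orange, 4 libraries) and Apoe4 (purple, 6 libraries). Points are the midpoint of the possible solutions and short bars, where visible, their range; no spread over libraries is shown. Stars mark the 4 receptors with an adjusted p under 0.05, among them Olfr319 at 34.7 against 12.8.

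The 4 called receptors lie within 228 kb, from the start of Olfr328 to the end of Olfr315. That stretch holds 11 members, of which 9 were tested. The 5 tested members between them that did not pass had shrunken log2 fold changes of -0.08 to -0.00, and the lowest adjusted p among them in the authors' deposited table was 0.842. Called receptors thus had uncalled ones between them. Olfr328 lies on the minus strand and the other 3 called receptors on the plus strand.

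All 12 tested members from Olfr311 to Olfr332 had a negative fold, whatever their p. Their median shrunken log2 fold change was -0.11, and it was -0.07 over the 8 that were not called, all of them negative. From Olfr376 to Olfr411, 12 of 14 tested members were negative, with a median of -0.08 and no call. From Olfr1372 to Olfr1396, 8 of 16 were negative, with a median of 0.00 and no call. Over all 42 tested members the median was -0.05, with quartiles of -0.15 and -0.00, against -0.02 over the other odorant receptors and 0.00 over all genes. A negative fold was held by 32 of the 42, against 56.6% of the other receptors and 48.9% of all tested genes. The standard errors of single members ran from 0.0600 to 0.105. Whether the groups differ from each other was not tested.

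On the unshrunken scale the medians were -0.25 for Olfr311 to Olfr332, -0.22 for Olfr376 to Olfr411 and -0.00 for Olfr1372 to Olfr1396. The other receptors had an unshrunken median of -0.05.

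**Figure D3:**
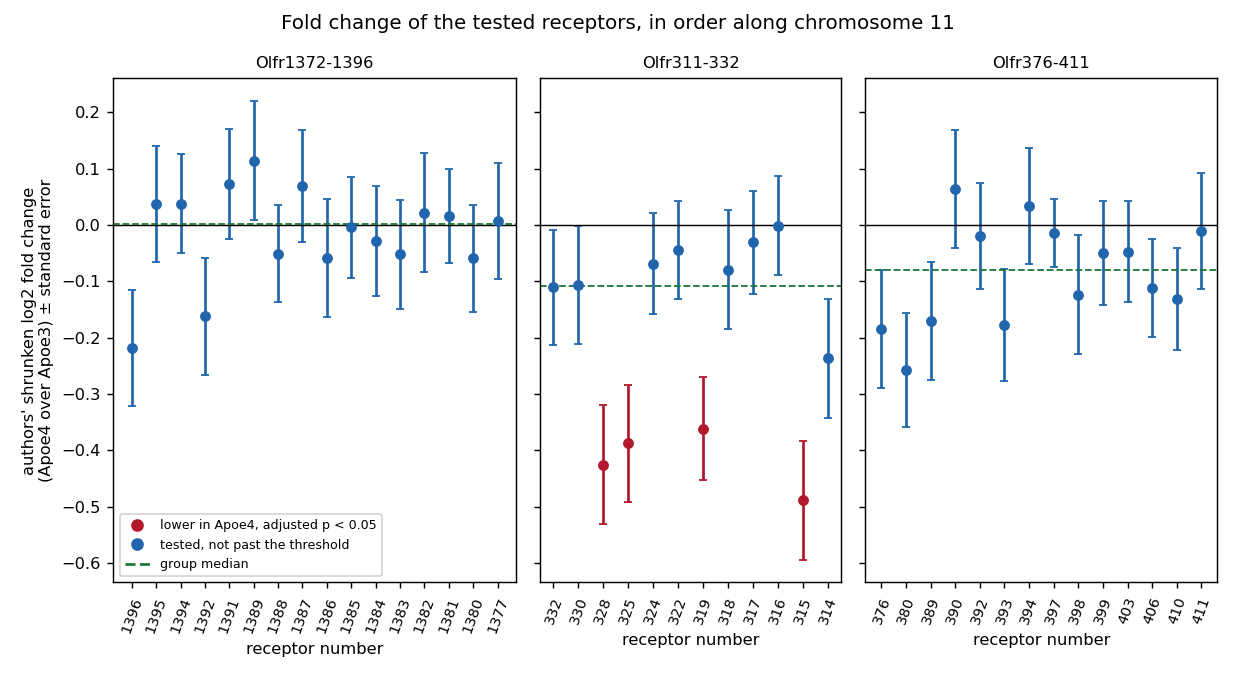
The authors' shrunken log2 fold change, Apoe4 over Apoe3, with its standard error (vertical axis) for the 42 tested receptors, in 3 panels by group and in order along chromosome 11. Red points passed an adjusted p of 0.05 and the dashed line is the median of a group, at 0.00, -0.11 and -0.08 from left to right. No point in the middle panel is above 0.

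Among the other members the smallest unadjusted p-values belonged to receptors with negative folds. Olfr380 had a shrunken log2 fold change of -0.26 (p = 0.0108, adjusted p = 0.308 in the authors' deposited table). Olfr1396, chosen for mention after its value was seen, had -0.22 (p = 0.0341, adjusted p = 0.445 in the authors' deposited table). With Olfr314, these are the only 3 further members with an unadjusted p under 0.05 among those tested, which makes 7 of 42, all lower. The background at that threshold was 5.76% of all tested genes lower (10.3% in either direction) and 9.48% of the other receptors lower (12.7% in either direction).

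The gene of Olfr1396 overlaps that of Olfr56 by 4893 bases on the opposite strand, and Olfr56 had a shrunken log2 fold change of 0.17 (adjusted p = 0.576 in the authors' deposited table). The strand setting of the counting was not stated, and reads of the pair may not be separable. Of the 61 members, 6 overlap another annotated gene and 3 of these overlap a receptor or receptor pseudogene. None of the 4 called receptors is among them.

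On the positive side no member came near the threshold. Olfr1389, one of the most abundant of its group, had the highest fold of the tested members, 0.11 (adjusted p = 0.750, from the authors' deposited table), while Olfr1391 had 0.07 (adjusted p = 0.848). The untested Olfr313 had a mean of 4.78 normalized counts and a shrunken log2 fold change of 0.11 (unadjusted p = 0.0464). Olfr384, at 1.75 normalized counts, had 0.05 (unadjusted p = 0.155). The authors' filter on low means left both without an adjusted p.

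The other most abundant members of the outer 2 groups did not pass. Olfr1395 had a shrunken log2 fold change of 0.04, Olfr1384 of -0.03, Olfr1386 of -0.06, Olfr390 of 0.06 and Olfr411 of -0.01, each with a standard error of 0.0979 to 0.105. Olfr389 had -0.17 (adjusted p = 0.584 in the authors' deposited table). Level and fold had a Spearman correlation of -0.316 over the 42 tested members, a description over genes that share the same libraries, and the shrinkage itself pulls low receptors towards 0.

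Receptors with other numbers inside the same spans were compared next, since the numbering leaves out 10 of them. Of these, 9 were tested, of which none passed and 0 had an unadjusted p under 0.05, with a median shrunken log2 fold change of -0.09. Olfr224 lies between Olfr328 and Olfr325, and had -0.13 (adjusted p = 0.715 in the authors' deposited table). Olfr139, in the span of Olfr376 to Olfr411, had -0.20 (adjusted p = 0.506). Counted by position, 4 of 51 tested receptors in the 3 spans passed.

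Genes of other kinds in and around the spans gave no call either. Within 500 kb of the Olfr311 to Olfr332 span 25 genes that are not receptors were tested, of which 0 passed and 2 had an unadjusted p under 0.05. Their median shrunken log2 fold change was -0.07 and their lowest adjusted p was 0.452 in the authors' deposited table. For the Olfr1372 to Olfr1396 span the same counts were 52 tested, 0 called and 6 with an unadjusted p under 0.05, and for the Olfr376 to Olfr411 span 15 tested, 0 called and 1. The lowest adjusted p in the authors' deposited table was 0.0979 around the former span and 0.397 around the latter. The background at an unadjusted p under 0.05 was 10.3% of all tested genes in either direction.

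To place these groups among the receptors of the genome, receptors less than 1 Mb apart were joined into clusters, which gave 18 clusters with at least 10 tested receptors. The cluster with Olfr311 to Olfr332 had 4 calls among 15 tested receptors, or 26.7%, the highest share of the 18, and the next highest was 6.90%. In 11 of the 18 clusters no receptor was called. The same cluster had the lowest median fold of the 18, -0.11, and the cluster with Olfr376 to Olfr411 the second lowest, -0.09, with 19 of its 21 tested receptors negative. A high share of negative folds was not particular to chromosome 11. The chromosome 17 cluster had 29 of 35 tested receptors negative, and a chromosome 7 cluster 14 of 17. Over the 18 clusters the share ran from 37.5% to 90.5%. The cluster with most of Olfr1372 to Olfr1396 had a median of 0.01. No test of these differences between clusters was made.

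**Figure D4:**
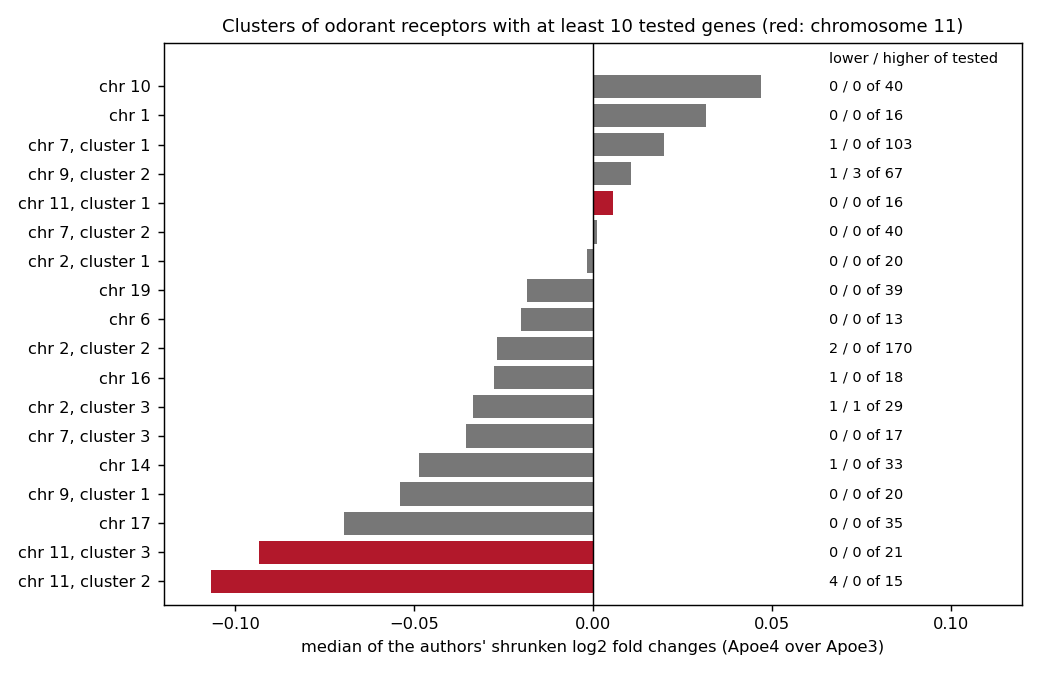
Median of the authors' shrunken log2 fold changes, Apoe4 over Apoe3 (horizontal axis), in each of 18 clusters of odorant receptors with at least 10 tested genes; bars start at 0 and red bars hold the chromosome 11 receptors. The numbers at the right count receptors lower and higher at an adjusted p under 0.05. Both lowest medians are on chromosome 11, and the lowest cluster has 4 of the calls.

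Some members are so similar to other receptors that a read may fit both. Of the 61, 18 share at least 1 window of 150 coding bases, the length of a read, with another receptor, and 43 share none. The median mean was 20.7 normalized counts in the former and 28.4 in the latter. Untranslated sequence and receptor pseudogenes were not compared, so that a member without a shared window is not shown to have unique reads. Level per kb and the highest coding identity to another receptor had a Spearman correlation of -0.239 over the 61 members, and fold and identity one of -0.0494 over the 42 tested, both as descriptions over genes of the same libraries.

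The highest coding identity of a member to any receptor was 98.7%, between Olfr403 and Olfr43, which is not a member. Of the windows of Olfr403, 32.66% also occur in another receptor. Olfr403 had a mean of 17.9 normalized counts and Olfr43 one of 92.2. Among pairs of members the closest copies are 3 of the Olfr1372 to Olfr1396 group, printed to show how little separates them. Olfr1373 and Olfr1381 shared 98.6% of coding bases, Olfr1380 and Olfr1381 98.1%, and Olfr1373 and Olfr1380 97.3%.
Olfr1381, chr11:49552079-49552153, plus strand: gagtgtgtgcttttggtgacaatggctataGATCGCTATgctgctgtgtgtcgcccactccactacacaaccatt
Olfr1380, chr11:49564253-49564327, plus strand: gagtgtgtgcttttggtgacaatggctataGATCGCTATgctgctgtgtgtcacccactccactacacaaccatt
Olfr1373, chr11:52145124-52145198, minus strand: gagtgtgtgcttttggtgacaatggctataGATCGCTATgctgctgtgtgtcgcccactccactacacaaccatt

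In this stretch Olfr1373 and Olfr1381 differed at 0 of 75 bases, and each differed from Olfr1380 at 1. Olfr1373 was listed at 0, while Olfr1381 had a mean of 13.02 normalized counts and Olfr1380 one of 24.2. Their shrunken log2 fold changes were 0.02 for Olfr1381 (authors' deposited table, adjusted p = 0.967) and -0.06 for Olfr1380 (adjusted p = 0.876). Since reads may be split or dropped among near-identical copies, the levels of these 3 members are uncertain.

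Promoter windows were available for 52 of the 61 members, covering 250 bases before to 50 after the start that RefSeq gives on GRCm38.p6. For 44 of them GENCODE has a start more than 1000 bases further upstream, which is usual for receptor genes with untranslated first exons, so that only 8 windows lie within 200 bases of the farthest start. The Ebf core CCCNNGGG, searched on both strands, was in 3.85% of the members' windows, 3.09% of those of all receptors and 13.4% of all windows. The homeodomain core TAATTA was in 19.2% of the members' windows, 18.7% of those of all receptors and 5.31% of all windows. The shares in the members and in all receptors were close, and a match is not evidence of binding.

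Genes that carry the odorant signal or govern receptor choice were measured in the same comparison. Of the transduction genes (the G protein, adenylyl cyclase, channel and recovery genes downstream of the receptors), 15 were tested and 0 passed, with shrunken log2 fold changes from -0.12 to 0.14. Of 25 genes of receptor choice, feedback and trafficking, among them Lhx2, Ldb1 and the Ebf factors, 0 passed and the median was 0.03. Of 8 markers of dorsal or ventral zones of the epithelium, 0 passed and the median was 0.02. Unadjusted p-values under 0.05 numbered 1, 3 and 0 in these lists.

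The smallest p-values in these lists belonged to Tshz1, a zinc finger factor, with a shrunken log2 fold change of 0.23 (adjusted p = 0.111, from the authors' deposited table). Ddit3, a stress response factor, had -0.20 (adjusted p = 0.359). Dnmt3a, a DNA methyltransferase, had 0.14 (adjusted p = 0.457) and Slc24a4, a sodium-calcium exchanger that helps end the response, had 0.14 (adjusted p = 0.469).

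Markers of the cell types in the tissue were measured beside the receptors. Of 12 markers of mature olfactory sensory neurons, 0 passed, 1 had an unadjusted p under 0.05 and the median shrunken log2 fold change was -0.02. Of 7 markers of immature neurons, 1 passed, Dpysl3, at 0.24 (authors' deposited table, adjusted p = 0.0272). Of 5 sustentacular markers, 1 passed, Cbr2, at -0.26 (adjusted p = 0.0421). Among these 5 sustentacular markers 2 had an unadjusted p under 0.05, and the median shrunken log2 fold change was -0.08. None of 5 globose basal, 3 horizontal basal, 3 Bowman gland, 3 respiratory ciliated or 4 immune cell markers passed, and 0 of them had an unadjusted p under 0.05. The erythroid marker Alas2 was lower in Apoe4, at -0.46 (adjusted p = 0.00337), and the globin genes Hbb-bs and Hba-a1 were listed at 0. The part of these markers, and of the Y-linked difference, in the receptor results was not tested.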

How the data were processed

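Poly(A) RNA libraries were sequenced as paired-end reads on a NovaSeq instrument, per the labels' protocols; the submitters' processing notes name STAR, featureCounts, DESeq2 and GRCm38, without versions. Strandedness is not given in the sources used here. In the authors' deposited file, a table holds per gene a mean signal (normalized counts over 10 libraries), a DESeq2 log2 fold change with its log2 standard error, a Wald score, and p-values, adjusted over 16050 genes. The deposited folds were shrunk (standard errors stop at 0.105, a prior SD of 0.211). Unshrunken folds were solved from fold and error; of 2 solutions, 1 was dropped where it exceeded Poisson information. Direction was read from genes with a single read, whose means took 10 levels, 6 positive (Apoe4) and 4 negative (Apoe3).

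No test was fitted here: every p in the report is the authors' DESeq2 Wald test, except where the alternatives adjusted those p-values again, with a lowess trend (fraction 0.3) of the score on transcript length subtracted for the length alternative. The members and gene lists were chosen with earlier results of these data known. Named receptors were those called, the 4 higher and 4 lower with the smallest p, the 4 most abundant per group, the closest pairs, those listed at 0 and those nearest the low-mean limit; closest relatives were named by sequence. Positions came from RefSeq GRCm38.p6, lengths and coding sequences from GENCODE vM21; coding identity replaced a planned protein identity. Python 3.11.15 with statsmodels 0.14.6 was used. Undoing the shrinkage was tried on simulated counts of 4 against 6 libraries, with the same spread assumed for all receptors. The solution closest to the fold of the simulated counts was kept there, so the choice between solutions was not tested. The simulation held 812 receptors, of which 100 were changed 2-fold and 100 were changed 1.5-fold. Of simulated 2-fold changes 71.0% were recovered at an adjusted p under 0.05, and of 1.5-fold changes 24.0%. Among unchanged receptors 7 were called. The authors' adjustment instead covered all tested genes, of which 0.779% were called in either direction. The simulated shares therefore cannot be read as the recovery in these data, where it may be lower.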

Additional observations from a re-analysis of the deposited data

How the results depend on the processing

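The 4 receptors called lower were the same 4 at an adjusted p under 0.1, with no filter on the mean, with X and Y genes left out of the adjustment, and with members taken by position. The looser threshold and the members by position could only have added calls. Leaving out X and Y genes changes the adjustment alone and does not separate sex from genotype. With a mean of at least 50, 3 of 21 tested receptors passed, since Olfr319 was filtered out. With the length trend removed, 3 passed, without Olfr325 (log2 fold change -0.32, adjusted p = 0.175); the adjusted p of the others was then 0.00458 for Olfr315, 0.0183 for Olfr328 and 0.0416 for Olfr319. At an unadjusted p under 0.05 there were 7, and 0 in a test of the shrunken folds against 1.2-fold, a test that the shrinkage makes strict.

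The median log2 fold change moved with the shrinkage undone, to -0.18 over all members (-0.20 with the other solution), -0.25 (-0.29) for Olfr311 to Olfr332 and -0.22 (-0.23) for Olfr376 to Olfr411. The other solution, and the median without the called members (-0.05), were added after seeing the data. Under the remaining alternatives the median of all members stayed between -0.03 and -0.11. The share of the summed level in the 10 highest members was 49.96% with no division by length and 49.4% per kilobase of coding sequence, with 9 of 10 members shared in each case. Of 54 alternatives for named receptors, 53 kept direction and side of the threshold, or moved less than the standard error, and 1, Olfr325, did not. Most of these could not have changed direction. Undoing the shrinkage leaves the sign and the adjusted p as they were, and dropping the filter leaves the fold as it was. Only removing the length trend could change both. Of the uncalled named receptors, Olfr411 (-0.01 to 0.02) and Olfr1381 (0.02 to -0.02) changed sign with the length trend removed.

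No paired analysis was possible because the table used here holds no values per library; leaving out each replicate was not run for the same reason. Receptors under a mean of about 10 normalized counts cannot be judged at this depth.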
